A study of Mus musculus with 16 samples.

Results

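Transcripts of chemokines and of their receptors were measured in bulk liver RNA of aged mice with and without the glucagon receptor in hepatocytes. Members were the genes of the count table whose symbol is Ccl, Cxcl, Ccr or Cxcr followed by a number and at most 1 letter, together with Cx3cl1, Cx3cr1, Xcl1 and Xcr1. This naming rule found 59 of 41079 genes, 41 ligands and 18 receptors. Of these, 43 (28 ligands and 15 receptors) passed the filter on low counts, among 16742 genes that passed in all. LKO mice carried a floxed Gcgr gene and a Cre transgene driven by the Albumin promoter, and CRE- mice carried the floxed gene without Cre. Livers came from males and females aged 20 to 22 months on a C57BL/6J background, with 4 mice in each of the 4 groups. Cre from this promoter acts in hepatocytes, and the receptor was absent from development on, so a change late in life cannot be told apart from an early effect. In bulk tissue, fewer cells of a type and less RNA per cell cannot be told apart either.

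The libraries held 33268424 to 56488920 counted reads, with medians of 44288170 in male CRE-, 38475729.5 in male LKO, 46840916 in female CRE- and 37348750.5 in female LKO. Female LKO 1 stood apart from the others before any gene was tested. It had the largest score on the first principal component (114, with 23.9% of variance), and its Spearman correlations with the other female LKO libraries were 0.928 to 0.944, against 0.958 to 0.979 among those 3. Male CRE- 3 had the largest score on the second component (89.6, with 16.8% of variance) and correlated with the other male CRE- libraries at 0.942 to 0.961. Both libraries were kept. Summed hepatocyte markers, of which Alb was the most abundant per length, marked every library as liver. Their sums were 66029, 90496, 102889 and 89455 CPM in male CRE-, 60641, 68668, 85349 and 69822 in male LKO, 108696, 105908, 111479 and 125900.0 in female CRE-, and 48683, 88949, 84030.5 and 65227 in female LKO. Here CPM are counts scaled to the TMM-adjusted total of each library. All 4 female LKO sums lay below all 4 female CRE- sums, with female LKO 1 lowest.

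Chemokines are small secreted proteins that bind to glycosaminoglycans on cell surfaces and guide leukocytes through receptors coupled to inhibitory G proteins. In liver they are made by Kupffer cells, sinusoidal endothelium, stellate cells, bile duct cells and hepatocytes, and the receptors sit mostly on leukocytes that enter from blood.

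Gcgr (chr11:120420011-120429815, GRCm39), the deleted gene, stood at 190.4, 193, 127 and 189.6 CPM in male CRE- libraries 1 to 4 and at 117, 136, 129.9 and 160.3 in male LKO. The female CRE- libraries held 162, 208, 201 and 180.0, and the female LKO libraries 48.8, 132, 119 and 93.6. In females every LKO library was below every CRE- library. In males all 4 LKO libraries were below the CRE- mean, but male CRE- 3 was as low as the LKO group. Gcgr fell in female LKO, with a log2 fold change of -0.93 (standard error 0.25; edgeR quasi-likelihood test with Benjamini-Hochberg adjustment, adjusted p = 0.0443, 4 of 4 LKO libraries lower). The male value was -0.37 (standard error 0.24; edgeR quasi-likelihood test with Benjamini-Hochberg adjustment, adjusted p = 0.671). The female call was lost in 7 of 8 fits that left out 1 female library. Reads from any Gcgr exon are in these counts, also from exons that the deletion leaves in place, so they do not measure how much receptor was left.

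In females, most chemokine and receptor transcripts had higher values in LKO than in CRE- livers, and no single member passed the test. Of 43 members, 34 had a fold change above 0 (79.1%, against 53.1% of all genes), 9 were below it (46.9% of all genes), and the median log2 fold change was 0.55 (0.04 over all genes). Of the receptors 14 of 15 were above 0 with a median of 0.82, and of the ligands 20 of 28 with a median of 0.50. With 1 library left out, the median over the 43 members ran from 0.47 (without female CRE- 2) to 0.97 (without female CRE- 4). The count above 0 ran from 29 (without female LKO 1) to 35 (without female LKO 2). By edgeR 0 members were called in female LKO against CRE-, beside 4.24% of all genes (710 genes), and 0 lower, beside 2.15%. With 1 library left out, the calls over all genes ran from 87 (without female CRE- 2) to 1310 (without female LKO 2). At unadjusted p under 0.05 there were 16 members (37.2%, against 21.4% of all genes), 14 of them higher (32.6% against 12.3%) and 2 lower (4.65% against 9.14%). Ccl12, counted among the 14, passed the filter through female LKO alone, so its direction was set by the filter and supports nothing. DESeq2 called 7 members, 6 of them higher (Cxcr2, Cxcl2, Cxcl13, Ccr2, Ccl7, Ccr6) and Cxcl12 lower, beside 11.1% of all genes. The count of 16 dropped to 8 when female LKO 1 was left out and to 8 when female CRE- 2 was left out. The edgeR count of 0 became 3, 1 and 1 when female LKO 2, 3 and 4 were left out in turn. Non-overlapping groups were seen for 4 members that were higher (Cxcl2, Cxcl13, Ccl25 and, by way of the filter, Ccl12; 5.2% of all genes) and for Cxcl12, which was lower (6.42% of all genes).

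In males, chemokine and receptor transcripts showed no shared direction between LKO and CRE- with all libraries in. Of 43 members, 21 had a fold change above 0 (48.8%, against 49.1% of all genes), 22 were below it (50.9% of all genes), and the median was -0.02 (-0.01 over all genes). Without male LKO 1 only 12 were above 0 (median -0.40), and without male CRE- 4 there were 29 (median 0.22), so the balance rested on single libraries. Ligands had a median of 0.12 with 16 of 28 above 0, and receptors a median of -0.18 with 5 of 15 above 0. By edgeR 0 members were called, beside 0.454% of all genes (76 genes), and 3 had an unadjusted p under 0.05 (6.98%, against 9.53% of all genes): Ccl25 was higher, and Cx3cr1 and Cxcl14 were lower. DESeq2 also called 0 members, beside 2.03% of all genes. In males the LKO and CRE- values did not overlap for Cxcr2 and Cxcl12, both lower in LKO (2.92% of all genes), and for no member that was higher (3.57% of all genes).

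The difference between the sexes in the LKO effect was more often positive than negative, that is, the signed female value was more often above the male one. Of 43 members, 29 had a higher fold change in females (67.4%, against 52.3% of all genes) and 14 a lower one (47.7% of all genes), with a median difference of 0.52 (0.04 over all genes), 0.54 for receptors and 0.23 for ligands. By edgeR 0 members were called for this difference, beside 0% of all genes (0 genes). Unadjusted p was under 0.05 for 7 members (16.3%, against 16% of all genes), 0 of them with the lower value in females (6.68% of all genes) and 7 with the higher (9.28% of all genes), among them Cxcr2, Cxcl2, Cx3cr1 and Ccr2. DESeq2 called 3 of them, Cxcr2, Cx3cr1 and Ccr2, beside 2.22% of all genes. The count of 7 became 13 without male LKO 1, and the median difference ran from 0.17 without male CRE- 4 to 1.05 without female CRE- 4.

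Among controls, female and male livers differed in Ccl25 alone by the adjusted test. By edgeR 1 member of 43 was called between female and male CRE-, beside 0.92% of all genes (154 genes), and it was lower in females, beside 0.508%, with 0 higher, beside 0.412%. A share of 1 in 43 is near that background. Unadjusted p was under 0.05 for 5 members (11.6%, against 12.7% of all genes): Ccr3 and Ccl9 were higher in females (6.3% of all genes), and Ccl25, Cx3cr1 and Ccr6 were lower (6.37% of all genes). DESeq2 called 2 members, Ccl25 and Ccl9, beside 3.11% of all genes. Control females had the higher value for 28 of 43 members (65.1%, against 49.4% of all genes) and the lower for 15 (50.6% of all genes), with a median difference of 0.11 (-0.01 over all genes). This direction rested on single libraries, since the count was 17 of 43 and the median -0.21 without female CRE- 4, and the count was 21 without male CRE- 2 and 22 without male CRE- 3. Female CRE- values lay above all male CRE- values for Ccl9 (4.37% of all genes) and below them for Cxcl2 and Ccl25 (3.17% of all genes).

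Neutrophil-directed CXC chemokines, which carry the ELR motif, act through Cxcr1 and Cxcr2. Cxcr2 (chr1:74193153-74200405, GRCm39), the receptor that brings neutrophils out of marrow and into tissue, had 1.79, 1.0, 0.988 and 2.0 CPM in male CRE- and 0.900, 0.750, 0.547 and 0.594 in male LKO. In females it had 1.06, 1.03, 0.239 and 0.641 in CRE- and 4.20, 1.5, 0.768 and 4.11 in LKO. The male LKO values all lay below the male CRE- values, while in females LKO 1 and LKO 4 stood far above all controls and LKO 3 lay inside their range. The group means were 1.44 ± 0.526 (SD, n = 4), 0.698 ± 0.161 (SD, n = 4), 0.744 ± 0.388 (SD, n = 4) and 2.64 ± 1.77 (SD, n = 4), in the same order. The female log2 fold change was 1.82 (standard error 0.54; edgeR quasi-likelihood test with Benjamini-Hochberg adjustment, adjusted p = 0.0644, 4 of 4 LKO libraries above the CRE- mean). The male one was -1.05 (standard error 0.53; same edgeR quasi-likelihood test and Benjamini-Hochberg adjustment, adjusted p = 0.565, 4 of 4 below). The difference between sexes was 2.86 (edgeR quasi-likelihood test, Benjamini-Hochberg adjusted p = 0.166). DESeq2 called Cxcr2 in females (1.82, Benjamini-Hochberg adjusted p = 0.0106) and for the difference (2.89, Benjamini-Hochberg adjusted p = 0.0147). edgeR also called it without female LKO 2 (2.01, Benjamini-Hochberg adjusted p = 0.0411) and without female LKO 3 (2.12, Benjamini-Hochberg adjusted p = 0.0371). The value was lowest, 1.51, without LKO 4, and the largest Benjamini-Hochberg adjusted p of the 8 edgeR fits was 0.187.

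Cxcl2 (chr5:91051758-91053797, GRCm39), a Cxcr2 ligand that macrophages release early in inflammation, was scarce in every group. Male CRE- libraries had 0.284, 0.490, 0.468 and 0.539 CPM, and male LKO 0.514, 0.208, 0 and 0.324. Female CRE- had 0.0887, 0.156, 0.168 and 0.187, and female LKO 1.01, 0.299, 0.329 and 1.13. Female LKO libraries were all above female CRE- libraries, again with LKO 1 and LKO 4 highest, and the male groups overlapped. In females the log2 fold change was 2.18 (standard error 0.76; edgeR quasi-likelihood test with Benjamini-Hochberg adjustment, adjusted p = 0.103, 4 of 4 libraries higher). DESeq2 gave 2.21 with a Benjamini-Hochberg adjusted p = 0.0256. The male value was -0.76 (-1.34 without male LKO 1 and -0.35 without male LKO 3). The difference between sexes was 2.95 (edgeR quasi-likelihood test, Benjamini-Hochberg adjusted p = 0.226). Control females were lower than control males by a log2 value of -1.56 without overlap (edgeR quasi-likelihood test, Benjamini-Hochberg adjusted p = 0.407).

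Cxcl1 (chr5:91039104-91040980, GRCm39), a second Cxcr2 ligand that hepatocytes also make, was far more abundant and did not follow Cxcl2. Its values were 16.8, 6.28, 4.73 and 15.3 CPM in male CRE- and 12.9, 8.77, 16.7 and 7.81 in male LKO. Female CRE- had 95.3, 5.24, 11.9 and 4.52, and female LKO 8.18, 12.7, 16.7 and 69.8. A single high library in each female group, CRE- 1 and LKO 4, made the groups overlap across their whole range. The log2 fold changes were 0.10 in males and -0.13 in females. Cxcl5, a ligand induced mostly in epithelium, was at or near 0 in many libraries, with log2 fold changes of -0.49 in males and 0.77 in females. Cxcr1 (chr1:74228862-74233867, GRCm39), the other neutrophil receptor, was just inside the filter with 102 reads in all and was -1.87 in males and 0.82 in females. Its female value ran from 0.39 without LKO 4 to 1.93 without CRE- 2. Cxcl3 (14 reads, 10 of them in female LKO 4) lay outside the filter, and Cxcl15 had no read. Within the 5 tested genes of this group the median log2 fold change was -0.76 in males and 0.82 in females. In females 2 were higher at unadjusted p under 0.05 (12.3% of all genes).

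The interferon-induced ligands Cxcl9, Cxcl10 and Cxcl11 and their receptor Cxcr3 showed no separation between LKO and CRE- in either sex. Cxcl9 (chr5:92469190-92475938, GRCm39), which interferon gamma induces in macrophages and endothelium, had 29.2, 13.7, 15.7 and 35.1 CPM in male CRE- and 24.1, 32.2, 11.7 and 10.1 in male LKO. Female CRE- had 23.7, 20.3, 29.3 and 54.8, and female LKO 23.2, 20.8, 21.6 and 26.2, so that female CRE- 4 alone stood high. The log2 fold changes were -0.26 in males and -0.48 in females (edgeR quasi-likelihood test with Benjamini-Hochberg adjustment, adjusted p = 0.860 and adjusted p = 0.522), and the female value was -0.0710 without CRE- 4. Cxcl10 (chr5:92494497-92496748, GRCm39), which type I and type II interferon and NF-kappaB induce, had 7.0, 2.99, 2.76 and 8.18 in male CRE-, 15.7, 6.93, 3.18 and 4.24 in male LKO, 3.24, 4.01, 5.41 and 9.94 in female CRE-, and 9.42, 6.51, 8.34 and 8.39 in female LKO. In females 3 CRE- libraries were below every LKO library, but CRE- 4 was above them all. Its fold changes were 0.52 in males and 0.53 in females (edgeR quasi-likelihood test with Benjamini-Hochberg adjustment, adjusted p = 0.765 and adjusted p = 0.571), and the female value was 0.97 without CRE- 4.

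Cxcl11, the last ligand of this set, was 3.19, 4.69, 2.63 and 1.84 CPM in female CRE- and 0.0755, 1.97, 2.07 and 1.68 in female LKO. Female LKO 1 was almost without it, and the other 3 LKO libraries overlapped the lowest control. Its female log2 fold change was -1.09 (edgeR quasi-likelihood test, Benjamini-Hochberg adjusted p = 0.290), and the male one -0.30. Cxcr3 (chrX:100775141-100777753, GRCm39), carried by activated T cells and NK cells, had 2.44, 1.52, 2.01 and 2.46 in female CRE- and 6.75, 2.14, 2.85 and 0.810 in female LKO. Female LKO libraries thus held both the highest and the lowest value. Male CRE- had 2.41, 1.02, 0.338 and 2.7, and male LKO 3.29, 1.37, 0.994 and 1.03, with full overlap. The log2 fold changes of Cxcr3 were 0.04 in males and 0.58 in females, the latter -0.0956 without LKO 1. Across these 4 genes the median was -0.11 in males and 0.03 in females. In either sex 0 of 4 had an unadjusted p under 0.05 (9.53% of all genes in males and 21.4% in females).

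Among the homeostatic CXC chemokines, Cxcl13 had the largest female fold change of all 43 members. Cxcl13 (chr5:96104785-96108927, GRCm39), which draws B cells through Cxcr5 and is made by follicular stroma and macrophages, had 32.0, 1.49, 0.624 and 43.5 CPM in male CRE- and 119, 6.60, 8.4 and 11.1 in male LKO. Female CRE- had 15.7, 3.43, 4.12 and 8.77, and female LKO 143, 27.4, 153 and 70.1. Every female LKO library lay above every female CRE- library, whereas male libraries spread over a wide range in both groups, with male LKO 1 highest. The female means were 8.01 ± 5.67 (SD, n = 4) in CRE- and 98.4 ± 60.1 (SD, n = 4) in LKO. The female log2 fold change was 3.62 (standard error 1.19; edgeR quasi-likelihood test with Benjamini-Hochberg adjustment, adjusted p = 0.0891, 4 of 4 libraries higher), and DESeq2 gave a Benjamini-Hochberg adjusted p = 0.0215. The male value was 0.90 (standard error 1.1; edgeR quasi-likelihood test with Benjamini-Hochberg adjustment, adjusted p = 0.822), with means of 19.4 ± 21.7 (SD, n = 4) and 36.3 ± 55.2 (SD, n = 4). The difference between sexes was 2.72 (edgeR quasi-likelihood test, Benjamini-Hochberg adjusted p = 0.381). Per length, Cxcl13 was at 12.5 TPM in female CRE- and 200.6 in female LKO, against 35.1 and 69.3 in males. TPM divide counts by gene length and set each library to the same total, without the TMM adjustment that CPM have.

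Cxcr5 (chr9:44423084-44437741, GRCm39), the receptor for Cxcl13 on B cells and follicular helper T cells, did not follow its ligand. It had 3.24, 1.67, 1.2 and 1.12 CPM in female CRE- and 3.93, 1.70, 2.09 and 0.405 in female LKO. Both groups had library 1 highest, and the ranges overlapped. The log2 fold changes were 0.31 in males and 0.17 in females, the latter -0.35 without LKO 1.

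Cxcl12 (chr6:117145496-117158329, GRCm39), the stromal and endothelial ligand of Cxcr4, was the most abundant member per length, with a mean of 89.7 TPM over the 16 libraries. In female LKO, Cxcl13 (200.6 TPM) and Ccl6 (139.7) were above it (76.3). Its values were 370.5, 386, 362 and 327 CPM in male CRE-, 247, 309, 259 and 308 in male LKO, 347, 405, 379.6 and 362 in female CRE-, and 194, 339.9, 266 and 172 in female LKO. In both sexes every LKO library was below every CRE- library, and Cxcl12 was the only member of which this was true in CPM. In TPM the female groups overlapped, with LKO 2 at 96.5 and LKO 3 at 83.5 against CRE- 4 at 79.3. Gene length is the same in every library, so this overlap came from the scaling of totals. The size of the female fall thus depended on the scaling, with mean TPM of 93.6 in CRE- and 76.3 in LKO. LKO against CRE- in females gave a log2 fold change of -0.62 (standard error 0.20; edgeR quasi-likelihood test with Benjamini-Hochberg adjustment, adjusted p = 0.0781, 4 of 4 libraries lower). The male one was -0.36 (standard error 0.19; edgeR quasi-likelihood test with Benjamini-Hochberg adjustment, adjusted p = 0.582, 4 of 4 lower), and the difference between sexes was -0.26 (edgeR quasi-likelihood test, Benjamini-Hochberg adjusted p = 0.645). The means were 361 ± 25.1 (SD, n = 4) and 281 ± 32.7 (SD, n = 4) in males, and 373 ± 25.0 (SD, n = 4) and 243 ± 76.0 (SD, n = 4) in females. DESeq2 called it in females (-0.61, Benjamini-Hochberg adjusted p = 0.0232), and edgeR called it there without female LKO 2 (-0.83, Benjamini-Hochberg adjusted p = 0.0188). The smallest change was -0.48, without LKO 4, and the largest Benjamini-Hochberg adjusted p of the 8 edgeR fits was 0.213.

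Cxcr4 (chr1:128515936-128520036, GRCm39), which holds leukocytes near Cxcl12 sources, went the other way in females. It had 3.67, 1.23, 1.98 and 3.46 CPM in male CRE-, 3.45, 1.83, 1.84 and 2.76 in male LKO, 2.31, 0.973, 1.87 and 2.62 in female CRE-, and 2.37, 2.94, 3.02 and 10.9 in female LKO. Most of the female difference came from LKO 4, and the other 3 LKO libraries lay close to the controls. The log2 fold change was 1.31 in females (standard error 0.49; edgeR quasi-likelihood test with Benjamini-Hochberg adjustment, adjusted p = 0.133, 4 of 4 above the CRE- mean) and 0.52 without LKO 4. In males it was -0.07.

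Cxcl14 (chr13:56436456-56444624, GRCm39), an epithelial and stromal chemokine, was among the 3 members with an unadjusted p under 0.05 in males. Male CRE- had 4.34, 2.67, 6.55 and 6.88 CPM, and male LKO 2.42, 2.46, 3.13 and 2.32. The male LKO values were tight and low, and male CRE- 2 lay among them. Female CRE- had 2.44, 4.13, 4.41 and 5.19, and female LKO 5.14, 3.39, 6.95 and 6.71. The log2 fold change was -0.98 in males (standard error 0.32; edgeR quasi-likelihood test with Benjamini-Hochberg adjustment, adjusted p = 0.275, 4 of 4 below the CRE- mean) and 0.46 in females. The difference between sexes was 1.44 (edgeR quasi-likelihood test, Benjamini-Hochberg adjusted p = 0.201).

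Cxcl16 (chr11:70345215-70350810, GRCm39), a ligand anchored in the membrane of macrophages and endothelium, had 17.4, 12.5, 16.2 and 25.4 CPM in female CRE- and 28.2, 22.3, 22.3 and 31.8 in female LKO. Only CRE- 4 reached into the LKO range. The log2 fold changes were 0.14 in males and 0.55 in females (edgeR quasi-likelihood test, Benjamini-Hochberg adjusted p = 0.345 in females). Its receptor Cxcr6 (chr9:123635542-123640819, GRCm39), which marks liver-resident T and NKT cells, was at 3.73, 2.41, 1.58 and 2.78 in female CRE- and at 1.76, 1.75, 4.13 and 0.289 in female LKO, with fold changes of 0.04 in males and -0.40 in females. The female value of Cxcr6 was -0.0294 without LKO 4 and -1.06 without LKO 3, and neither gene had an unadjusted p under 0.05. Of the 7 tested homeostatic genes, 2 were higher and 1 lower at unadjusted p under 0.05 in females (12.3% and 9.14% of all genes), and 1 was lower in males (4.74% of all genes). The group medians were 0.04 in males and 0.46 in females. Cxcl17, also of this group, had 2 reads in all.

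The monocyte-directed CC chemokines and their receptors had the highest female median of the 6 role groups. Of 12 tested genes, 11 had a fold change above 0 in females and 7 were higher at unadjusted p under 0.05 (against 53.1% and 12.3% of all genes), Ccl12 included in both counts, with a median of 1.44 against 0.30 in males. Ccr2 (chr9:123901954-123913594, GRCm39), the receptor by which inflammatory monocytes leave marrow, had 12.6, 3.54, 7.54 and 10.1 CPM in male CRE- and 7.38, 5.23, 3.90 and 3.38 in male LKO. Female CRE- had 7.63, 3.11, 4.17 and 5.24, and female LKO 42.8, 6.11, 11.5 and 12. Female LKO 1 stood far above all other libraries, LKO 3 and LKO 4 were above every control, and LKO 2 was inside the control range. The female means were 5.04 ± 1.93 (SD, n = 4) and 18.1 ± 16.7 (SD, n = 4). For females the log2 fold change was 1.85 (standard error 0.52; edgeR quasi-likelihood test with Benjamini-Hochberg adjustment, adjusted p = 0.0546, 4 of 4 LKO libraries above the CRE- mean), and 0.99 without LKO 1 (edgeR, Benjamini-Hochberg adjusted p = 0.245). DESeq2 called it (1.84, Benjamini-Hochberg adjusted p = 0.00594), and edgeR did so without female LKO 2 (2.13, Benjamini-Hochberg adjusted p = 0.0212). The male value was -0.77 and the difference between sexes 2.61 (edgeR quasi-likelihood test, Benjamini-Hochberg adjusted p = 0.671 and adjusted p = 0.173). DESeq2 called that difference (2.63, Benjamini-Hochberg adjusted p = 0.0195).

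Ccl2 (chr11:81926403-81928278, GRCm39), the main Ccr2 ligand, was 6.03, 1.96, 1.90 and 7.37 CPM in male CRE- and 8.62, 2.50, 2.53 and 2.32 in male LKO. Female CRE- had 2.84, 2.34, 3.42 and 2.94, and female LKO 15.7, 2.52, 4.79 and 8.42. Female LKO 1, 3 and 4 exceeded all controls and LKO 2 lay among them. Its female log2 fold change was 1.45 (standard error 0.58; edgeR quasi-likelihood test with Benjamini-Hochberg adjustment, adjusted p = 0.153, 3 of 4 above the CRE- mean) and 0.88 without LKO 1, against -0.11 in males. Ccl7, a neighbouring Ccr2 ligand, had 0.710, 0.0779, 0.192 and 0.83 in female CRE- and 9.26, 0.524, 2.03 and 2.31 in female LKO. Again LKO 2 was the library inside the control range. The female value of Ccl7 was 2.97 (standard error 1.10; edgeR quasi-likelihood test with Benjamini-Hochberg adjustment, adjusted p = 0.123), and DESeq2 called it (2.96, Benjamini-Hochberg adjusted p = 0.0309). Ccl12, another ligand of the receptor, was near 0 in controls (0.177, 0, 0.144 and 0) and at 0.856, 0.249, 0.439 and 0.752 in female LKO. It held 34, 10, 24 and 26 reads in female LKO and at most 8 in any female CRE- library, and passed the filter through that group alone, so its log2 fold change of 2.79 is a description. The male values of Ccl7 and Ccl12 were 0.78 and 1.29.

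Ccr1, shared by monocytes and neutrophils, was 1.82, 0.701, 0.670 and 7.38 CPM in female CRE- and 4.91, 1.40, 1.24 and 10.9 in female LKO, with overlap, and its fold changes were 0.27 in males and 0.81 in females. Among its ligands, Ccl3 was at 0.488, 0.156, 0.623 and 1.18 in female CRE- and at 5.99, 0.947, 1.23 and 1.56 in female LKO. All LKO libraries except LKO 2 exceeded every control, and the female value was 2.0 (edgeR quasi-likelihood test, Benjamini-Hochberg adjusted p = 0.154, 4 of 4 above the CRE- mean) beside 0.32 in males. Ccl4 and Ccl5, made mainly by lymphocytes and macrophages, were at 0.70 and 0.28 in females and 0.83 and 0.07 in males. Ccl8, a macrophage ligand, was at 1.43 in females and 1.38 in males.

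Ccl6 and Ccl9, Ccr1 ligands of myeloid cells that are typical of rodents, were both abundant and had opposite signs in each sex. Ccl6 (chr11:83478712-83483913, GRCm39) had 17, 10.4, 3.85 and 29.2 CPM in male CRE-, 35.0, 18.8, 20.9 and 22.3 in male LKO, 20.1, 15.7, 16.2 and 66.6 in female CRE-, and 156, 30.3, 85.7 and 55.0 in female LKO. Apart from female CRE- 4, the female groups did not overlap. The log2 fold changes were 0.68 in males and 1.46 in females (standard error 0.59; edgeR quasi-likelihood test with Benjamini-Hochberg adjustment, adjusted p = 0.157 in females, 4 of 4 above the CRE- mean), and the female value was 0.96 without LKO 1 and 2.24 without CRE- 4. Ccl9 (chr11:83463743-83469462, GRCm39) had 44.5, 67.0, 57.9 and 62.2 in male CRE-, 68.6, 39.3, 51.1 and 37.7 in male LKO, 87.8, 88.5, 101 and 154 in female CRE-, and 99.6, 61.1, 62.9 and 98.5 in female LKO. The sexes were set apart in controls, where every female library was above every male one, and LKO overlapped CRE- in each sex. The control difference was 0.90 (standard error 0.25; edgeR quasi-likelihood test with Benjamini-Hochberg adjustment, adjusted p = 0.117, 4 of 4 higher in females), and DESeq2 called it (0.89, Benjamini-Hochberg adjusted p = 0.0303). The LKO values of Ccl9 were -0.23 in males and -0.42 in females. In TPM, without TMM scaling, its female means were 63.1 in CRE- and 62.1 in LKO. The male value ran from -0.45 without LKO 1 to -0.14 without LKO 4. The female one ran from -0.54 without LKO 4 to -0.18 without CRE- 4.

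**Figure D1:**
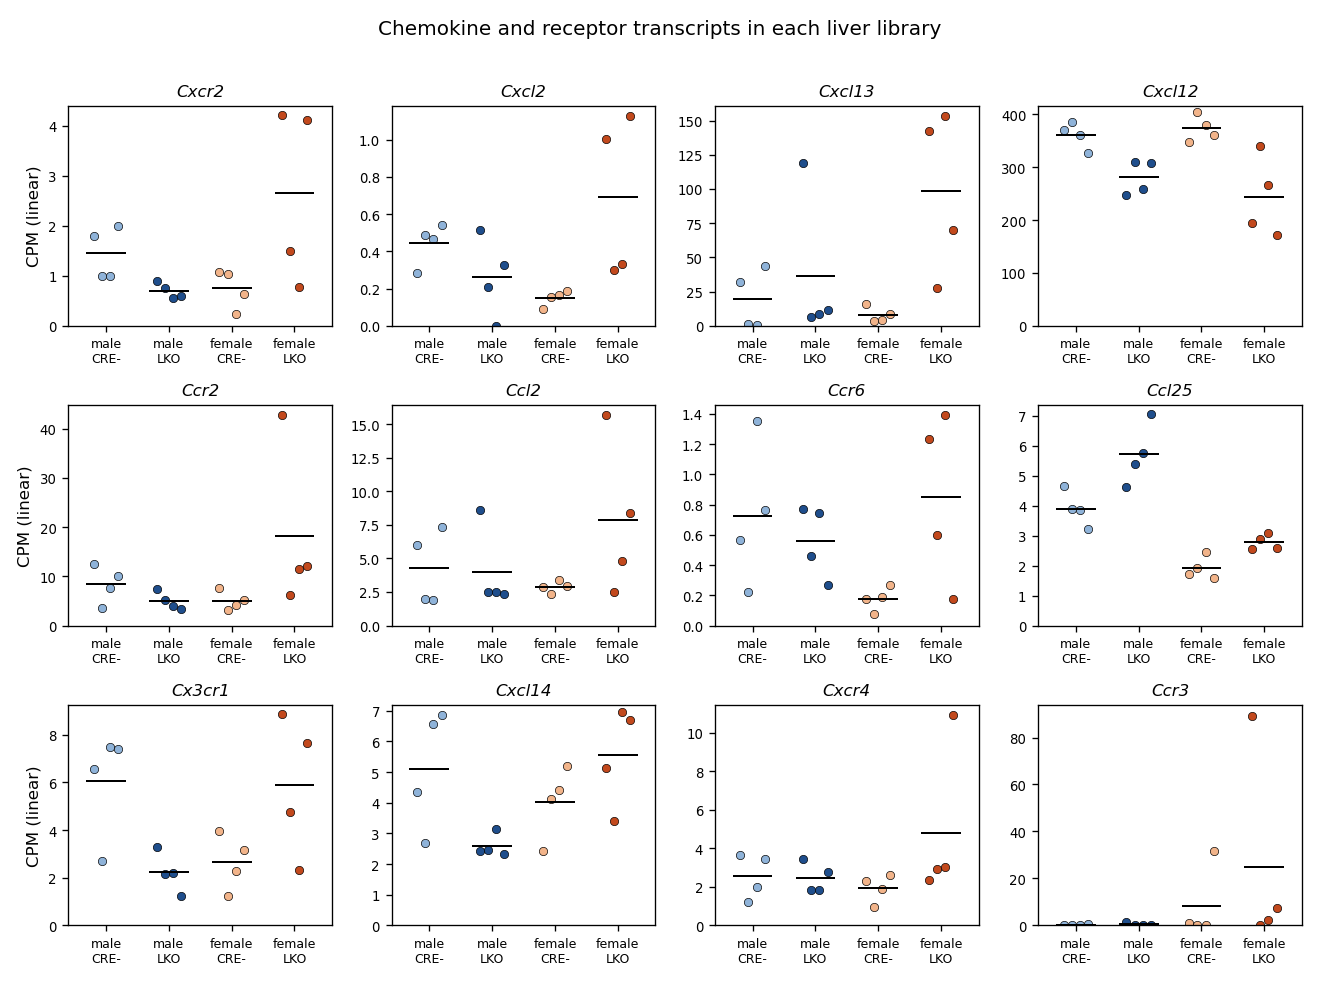
CPM, on linear axes, of 12 members in each library by group, with points for libraries and lines for group means. Cxcl12 is lower in every LKO library of both sexes, and Cxcl13 is higher in all 4 female LKO libraries (27.4 to 153) than in female CRE- (3.43 to 15.7).

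Of the CC chemokines tied to lymphocytes, eosinophils and epithelium, Ccl25 showed the most regular pattern. Ccl25 (chr8:4375207-4410020, GRCm39), known for guiding lymphocytes to gut through Ccr9, had 4.67, 3.88, 3.85 and 3.21 CPM in male CRE- and 4.63, 5.39, 5.76 and 7.08 in male LKO. Female CRE- had 1.73, 1.93, 2.44 and 1.58, and female LKO 2.57, 2.89, 3.07 and 2.60. Female LKO libraries were all above female CRE-, male LKO overlapped male CRE- by 1 library, and control females were all below control males. Ccl25 was lower in female than in male CRE- by a log2 value of -1.02 (standard error 0.22; edgeR quasi-likelihood test with Benjamini-Hochberg adjustment, adjusted p = 0.0370, 4 of 4 lower). DESeq2 called the same difference (-1.04, Benjamini-Hochberg adjusted p = 0.000160), and the edgeR call was lost in 6 of 8 fits without 1 control library, those without male CRE- 1, 2 or 3 or female CRE- 1, 2 or 4. The LKO fold changes were alike, 0.55 in males and 0.54 in females (standard error 0.22 in each; edgeR quasi-likelihood test with Benjamini-Hochberg adjustment, adjusted p = 0.397 and adjusted p = 0.163, 4 of 4 above the CRE- mean in each sex). The means were 3.90 ± 0.595 (SD, n = 4) and 5.72 ± 1.02 (SD, n = 4) in males and 1.92 ± 0.377 (SD, n = 4) and 2.78 ± 0.241 (SD, n = 4) in females. Its receptor Ccr9 (chr9:123596276-123612522, GRCm39) was below 1 in every library, with fold changes of -0.37 in males and 0.07 in females.

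Ccr6 (chr17:8454875-8477353, GRCm39), found on B cells, Th17 cells and some dendritic cells, was scarce. It had 0.568, 0.223, 1.35 and 0.764 CPM in male CRE-, 0.772, 0.458, 0.745 and 0.270 in male LKO, 0.177, 0.0779, 0.192 and 0.267 in female CRE-, and 1.23, 0.598, 1.39 and 0.174 in female LKO. In females 3 LKO libraries were above all controls and LKO 4 was among them. Females had a log2 fold change of 2.25 (standard error 0.67; edgeR quasi-likelihood test with Benjamini-Hochberg adjustment, adjusted p = 0.0650, 3 of 4 above the CRE- mean), and it was 2.59 without LKO 4 (edgeR, Benjamini-Hochberg adjusted p = 0.0429) and 1.89 without LKO 3, with a largest adjusted p of 0.192 over the 8 fits. DESeq2 called it (2.28, Benjamini-Hochberg adjusted p = 0.0128). The male value was -0.37 (0.0948 without male CRE- 3), the difference 2.62 and the control difference -2.02 (edgeR quasi-likelihood test, Benjamini-Hochberg adjusted p = 0.881, adjusted p = 0.218 and adjusted p = 0.209). Ccl20, its ligand, had 16 reads over all 16 libraries, at most 2 in any, and was not tested. Those reads were 0, 2, 0 and 2 in male CRE-, 0, 2, 0 and 2 in male LKO, 0, 2, 0 and 0 in female CRE-, and 2, 2, 2 and 0 in female LKO.

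Ccr3 (chr9:123817799-123831729, GRCm39), the eosinophil receptor, was nearly absent from most livers and very high in a few. Male CRE- had 0.162, 0, 0 and 0.360 CPM, and male LKO 1.59, 0.167, 0.199 and 0.0540. Female CRE- had 1.02, 0.117, 0 and 31.8, and female LKO 89.3, 0.0997, 2.41 and 7.46. A control (CRE- 4, 1190 reads) and an LKO library (LKO 1, 3548 reads) held most of the signal in females. The female log2 fold change of 1.60 (standard error 1.61; edgeR quasi-likelihood test with Benjamini-Hochberg adjustment, adjusted p = 0.620, 1 of 4 above the CRE- mean) ran from -1.30 without LKO 1 to 5.99 without CRE- 4. Ccl24, an eosinophil ligand of Ccr3 made by macrophages, had 2.13, 3.08, 3.40 and 13.6 in female CRE- and 15.1, 2.79, 27.3 and 6.07 in female LKO. It too was high in CRE- 4 and LKO 1, and highest in LKO 3. Its fold changes were 0.55 in males and 1.21 in females. Ccl11, a further Ccr3 ligand, lay just outside the filter with 66 reads.

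Ccl27a, a ligand made by epithelium, was the other member lower in female LKO at unadjusted p under 0.05. It had 9.27, 13.5, 10.2 and 6.92 CPM in female CRE- and 1.21, 7.30, 5.74 and 4.51 in female LKO, so that only LKO 2 overlapped the controls. The female log2 fold change was -1.09 (standard error 0.44; edgeR quasi-likelihood test with Benjamini-Hochberg adjustment, adjusted p = 0.159, 4 of 4 below the CRE- mean), against 0.17 in males. Reads of Ccl27a that also fit Ccl27b (64 reads) were not counted, so its level is uncertain. The same holds for Ccl21a, a ligand of lymphatic vessels, whose near copies Ccl21d, Ccl21e and Ccl21f had no read and Ccl21b had 64. Ccl21a was at 0.76 in males and -0.82 in females, with 1.64, 0.934, 0.431 and 0.748 in female CRE- and 0.0503, 1.05, 0.951 and 0.0579 in female LKO. Ccl19, which shares the receptor Ccr7 with Ccl21a, was at 0.64 and 0.25, and Ccr7 itself, carried by naive T cells and migrating dendritic cells, at -0.17 and 0.05. Ccl22, made by dendritic cells, was at -0.33 and 0.23, and Ccl28, an epithelial ligand just inside the filter with 110 reads, at -0.02 and 0.23. Of the 11 genes of this group that were tested, 2 were higher and 1 lower at unadjusted p under 0.05 in females, near the 12.3% and 9.14% of all genes, with medians of 0.17 in males and 0.23 in females.

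Outside the filter were also Ccl17 (60 reads), Ccr10 (56), Ccr4 (44), Ccl1 (24) and Ccr8 (19), which serve skin-homing, regulatory and type 2 T cells, and Ccl26 with no read.

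The C and CX3C members included Cx3cr1, whose difference between sexes had the smallest unadjusted p of the tested members (edgeR quasi-likelihood test). Cxcl2 and Cxcr2, among others, had larger differences. Cx3cr1 (chr9:119877749-119897362, GRCm39), a receptor of patrolling monocytes and of some tissue macrophages, had 6.57, 2.72, 7.49 and 7.42 CPM in male CRE- and 3.29, 2.17, 2.19 and 1.24 in male LKO. Female CRE- had 3.95, 1.25, 2.30 and 3.15, and female LKO 8.86, 4.74, 2.34 and 7.64. Male LKO was low save for overlap with CRE- 2, and in females LKO 1, 2 and 4 were above every control while LKO 3 lay among them. The male log2 fold change was -1.44 (standard error 0.45; edgeR quasi-likelihood test with Benjamini-Hochberg adjustment, adjusted p = 0.244, 4 of 4 below the CRE- mean). The female one was 1.15 (standard error 0.45; edgeR quasi-likelihood test with Benjamini-Hochberg adjustment, adjusted p = 0.144, 3 of 4 above). The difference between sexes was 2.59 (standard error 0.63; edgeR quasi-likelihood test with Benjamini-Hochberg adjustment, adjusted p = 0.144), and DESeq2 called it (2.61, Benjamini-Hochberg adjusted p = 0.00729). The means were 6.05 ± 2.26 (SD, n = 4) and 2.22 ± 0.839 (SD, n = 4) in males, and 2.66 ± 1.16 (SD, n = 4) and 5.89 ± 2.93 (SD, n = 4) in females. Control females were lower than control males at -1.18 (edgeR quasi-likelihood test, Benjamini-Hochberg adjusted p = 0.277), so the male LKO mean was close to the female CRE- mean.

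Cx3cl1 (chr8:95498808-95509055, GRCm39), the membrane-bound ligand of Cx3cr1 on endothelium and bile ducts, had 1.62, 1.02, 2.44 and 3.37 CPM in male CRE-, 1.59, 0.833, 1.64 and 1.30 in male LKO, 2.44, 1.75, 1.48 and 2.89 in female CRE-, and 2.77, 1.94, 1.72 and 2.72 in female LKO. The ligand thus showed nothing like the female difference of its receptor, at -0.66 in males (edgeR quasi-likelihood test, Benjamini-Hochberg adjusted p = 0.603) and 0.10 in females. Xcl1 (chr1:164759216-164763094, GRCm39), released by NK and T cells, was 0.665, 0.584, 0.431 and 2.35 in female CRE- and 0.957, 0.848, 1.28 and 0.289 in female LKO. Its receptor Xcr1 (chr9:123681380-123691094, GRCm39), which marks cross-presenting dendritic cells, was 0.621, 0.740, 0.718 and 1.98 in female CRE- and 3.32, 0.698, 1.02 and 0.0579 in female LKO. Both genes overlapped fully between groups, with fold changes of -0.17 and -0.24 for Xcl1 and of -0.18 and 0.34 for Xcr1 in males and females. The female Xcr1 value was -0.72 without LKO 1. Within these 4 genes the medians were -0.42 in males and 0.22 in females. Cx3cr1 alone had an unadjusted p under 0.05 in either sex (9.53% of all genes in males and 21.4% in females).

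Per length, Cxcl12, Cxcl13 (79.4 TPM as a mean over 16 libraries), Ccl6 (58.1), Ccl9 (50.1), Cxcl1 (42.4) and Ccl5 (34.0) had the highest means among ligands, although Cxcl13 was at 12.5 in female CRE-, below Ccl9 (63.1) and Ccl6 (35.2). Receptors were lower, with Ccr3 at 5.85 because of its few high libraries, Ccr2 at 4.43, Cxcr4 at 2.96, Cxcr3 at 2.89 and Cx3cr1 at 2.44. Summed over all receptors, female LKO held 205, 35.7, 62.5 and 66.5 CPM and female CRE- 41.3, 24.2, 25.9 and 73.8. In males the sums were 51.9, 22.0, 27.6 and 48.5 in CRE- and 41.0, 25.3, 24.0 and 19.5 in LKO. Female LKO 1 was thus highest by far, mostly through Ccr3 and Ccr2, and the high female CRE- 4 owed more to Ccr3 than to any other receptor. Summed ligands differed less, at 648, 594, 601 and 753 in female CRE-, 738, 565, 716 and 582 in female LKO, 592, 526, 481 and 609 in male CRE-, and 611, 476, 426 and 454 in male LKO.

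Genes linked to the members by family, signalling or induction were counted as lists, and their part in the result was not tested. Relatives with other symbols, the platelet chemokines and the atypical receptors, were 7 tested genes with Pf4 the most abundant per length. Pf4, which platelets, megakaryocytes and Kupffer cells express, rose in female LKO (log2 fold change 2.99, standard error 0.77; edgeR quasi-likelihood test with Benjamini-Hochberg adjustment, adjusted p = 0.0412), the 1 edgeR call among the 7 beside 2 by DESeq2 (Pf4 and Ppbp), against 4.24% and 11.1% of all genes, with a list median of 0.07 in females and 0.30 in males. The list sums were 13.3, 11.2, 9.28 and 21 CPM in male CRE-, 16.7, 10.5, 13.8 and 11.4 in male LKO, 13.8, 11.2, 11.7 and 17.2 in female CRE-, and 41.9, 13.1, 24.0 and 31.4 in female LKO. Genes that carry the signal of chemokine receptors to cell movement had 5 of 34 called higher in females (Pik3r5, Vav1, Was, Fgr and Itgam; 2.09% of all genes), 18 called by DESeq2 (11.1% of all genes in either direction), 26 higher at unadjusted p under 0.05 (12.3% of all genes), and medians of 1.16 in females and -0.17 in males. Gnai2 was the most abundant per length, and the sums were 1129, 998, 952 and 1335 in male CRE-, 1219, 1025, 999 and 982 in male LKO, 1129.8, 989, 1039 and 1338 in female CRE-, and 2675, 1186, 1493 and 1468 in female LKO. Of these 34 genes, 31 were above 0 in females and 8 in males.

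Inducers of chemokine transcription (cytokines, their receptors, NF-kappaB and interferon factors) had 1 of 24 tested genes called in females, near the 4.24% of all genes, Il1r1 (log2 fold change 1.70, standard error 0.38; edgeR quasi-likelihood test with Benjamini-Hochberg adjustment, adjusted p = 0.0250). DESeq2 called 6 (11.1% of all genes), Il1r1, Tlr2, Tlr4, Tnfaip3, Ifngr1 and Nfkbia. In this list 11 were higher at unadjusted p under 0.05 in females (12.3% of all genes), 23 of 24 were above 0, and the medians were 0.70 in females and -0.11 in males. Tnfrsf1a was the most abundant per length, with sums of 871, 649.5, 584 and 902 CPM in male CRE-, 755, 628, 663 and 591 in male LKO, 1009, 583, 641 and 799 in female CRE-, and 1303, 835, 893 and 1108 in female LKO. Il6 and Il17a had too few reads to be tested. Proteases that trim chemokines and the proteoglycans that present them had 3 of 16 called in females (4.24% of all genes). Mmp8 (3.50) and Ctsg (4.98), both stored in neutrophils, were higher, and Dpp4 (-0.75), which clips chemokines, was lower. DESeq2 called the same 3 (11.1% of all genes). Ctsg passed the filter only through female LKO (2.32, 0.249, 0.622 and 10.2 CPM). Elsewhere it was above 0.222 CPM only in male CRE- 1 (0.609) and male CRE- 4 (1.66). Its direction was thus set by the filter and supports nothing. The medians of this list were 0.05 in females and -0.30 in males, Ctsb was the most abundant per length, and the sums were 1913, 2246, 2296 and 2332 in male CRE-, 1622, 1711, 1974 and 1663 in male LKO, 2398, 2406, 2335 and 3022 in female CRE-, and 2909, 2085, 2068 and 2188 in female LKO. In males edgeR called 0 genes in any of the lists or marker sets, against 0.454% of all genes. DESeq2 called Mmp8 and the neutrophil genes Camp, Ngp, Ltf and Mpo there, all lower (2.03% of all genes in either direction).

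Markers of the cells that carry or make the members were summed in each library, and their part in the result was not tested. Neutrophil markers, to be set beside Cxcr2, had 4 of 9 called higher in females (Retnlg, Mpo, Ngp and Ltf) by edgeR and 8 by DESeq2 (2.09% and 11.1% of all genes, the latter in either direction), and medians of 3.82 in females and -2.24 in males, where 8 of 9 were lower at unadjusted p under 0.05 (4.74% of all genes). Their sums, with S100a9 most abundant per length, were 108, 20.7, 19.7 and 222 CPM in male CRE-, 27.0, 17.3, 13.6 and 12.6 in male LKO, 40.3, 20.3, 17.2 and 19.4 in female CRE-, and 157, 45.5, 82.9 and 716 in female LKO. As for Cxcr2, female LKO 1 and LKO 4 and male CRE- 1 and CRE- 4 were the high libraries. Markers of monocytes and macrophages, to be set beside Ccr2 and Cx3cr1, had 4 of 10 called higher in females (Adgre1, Cd14, Chil3 and Trem2) by edgeR and 8 by DESeq2, against the same shares, with medians of 1.98 and -0.14. With Lyz2 most abundant per length, they summed to 541, 221, 154 and 801 in male CRE-, 646, 311, 317 and 262 in male LKO, 389.9, 264, 297 and 507 in female CRE-, and 1442, 555, 1073 and 942 in female LKO. Kupffer cell markers had 0 of 6 called by edgeR in females and 5 by DESeq2. In females 6 of 6 were higher at unadjusted p under 0.05 (12.3% of all genes), with medians of 1.47 and 0.28. With Cd5l most abundant per length, these summed to 592, 335, 167 and 861 in male CRE-, 814, 466, 539.6 and 488 in male LKO, 532, 409, 450.0 and 735 in female CRE-, and 2724, 688, 1569 and 843 in female LKO. As for Cxcl13, LKO 1 and LKO 3 were the highest female libraries.

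Lymphoid markers are given beside the lymphoid receptors Cxcr3, Cxcr5, Ccr6 and Ccr7. In females edgeR called 4.24% of all genes and DESeq2 11.1%, and 21.4% had an unadjusted p under 0.05. T and NK cell markers (Nkg7 most abundant per length) had 0 of 10 called in females by edgeR and 0 by DESeq2, 1 with an unadjusted p under 0.05, and medians of 0.26 in females and -0.14 in males. Their sums were 23.1, 7.89, 8.68 and 25.7 CPM in male CRE-, 29.7, 16.2, 12.3 and 9.29 in male LKO, 23.9, 10.6, 13.5 and 30.8 in female CRE-, and 35.4, 21, 32.3 and 18.8 in female LKO. B and plasma cell markers (Jchain most abundant per length) had 1 of 7 called in females by edgeR and by DESeq2, Cr2 (2.97), with medians of 0.76 and 0.06 and sums of 57.7, 42.9, 48.3 and 73.7 in male CRE-, 64.6, 60.0, 61.5 and 39.1 in male LKO, 62.0, 29.3, 52.1 and 44.6 in female CRE-, and 74.8, 67.8, 134 and 22.8 in female LKO. Cxcr5 was likewise lowest in female LKO 4. Dendritic cell markers (Clec10a most abundant per length) had 0 of 4 called by edgeR or DESeq2 and 0 with an unadjusted p under 0.05 in females, with medians of 0.92 and 0.43 and sums of 13.1, 4.50, 4.26 and 7.17 in male CRE-, 13.6, 6.52, 4.65 and 4.67 in male LKO, 6.21, 4.52, 4.91 and 9.36 in female CRE-, and 21, 7.16, 11 and 11.8 in female LKO.

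The counts of resident cell and proliferation markers in females stand against 4.24% of all genes called by edgeR, 11.1% by DESeq2 and 21.4% at unadjusted p under 0.05. Among resident cells that make Cxcl12, sinusoidal endothelial markers (Clec4g most abundant per length) had 0 of 6 called in females by edgeR and 1 by DESeq2 (Lyve1, higher), 2 with an unadjusted p under 0.05, and medians of 0.15 in females and 0.33 in males. Their sums were 131, 227, 181 and 185 CPM in male CRE-, 219, 217, 243 and 231 in male LKO, 176, 247, 245 and 254 in female CRE-, and 319, 239, 199 and 251 in female LKO. Stellate cell and fibroblast markers (Dcn most abundant per length) had 0 of 6 called by edgeR or DESeq2, 0 with an unadjusted p under 0.05 in females and 1 in males (Pdgfrb, lower), 2 of 6 above 0 in each sex, medians of -0.11 and -0.62, and sums of 273, 269, 501 and 348 in male CRE-, 390.2, 276, 246 and 254 in male LKO, 295, 359, 362 and 327 in female CRE-, and 326, 322, 351 and 198 in female LKO. Female LKO 4 was the lowest female library both in this sum and in Cxcl12, while LKO 1, with Cxcl12 nearly as low (194), had a sum (326) within the control range. Bile duct markers (Spp1 most abundant per length) had 0 of 6 called by edgeR or DESeq2 and 0 with an unadjusted p under 0.05, medians of 0.24 and 0.50, and sums of 61.0, 43.6, 44.2 and 101 in male CRE-, 82.0, 72.3, 90.4 and 88.7 in male LKO, 118, 62.0, 53.3 and 64.6 in female CRE-, and 66.8, 147, 100.3 and 90.6 in female LKO. Hepatocyte markers had 0 of 6 called by edgeR, Alb called lower by DESeq2 in females, and 2 lower at unadjusted p under 0.05 in each sex (Alb and Cps1 in females, Cps1 and Pck1 in males), with medians of -0.48 and -0.17. Proliferation markers (Top2a most abundant per length) had 3 of 4 called higher in females (Top2a, Ccnb1 and Cdk1) by edgeR and 4 by DESeq2, medians of 2.08 and 0.09, and sums of 10.2, 4.50, 19.5 and 7.39 in male CRE-, 12.1, 6.83, 11.5 and 4.11 in male LKO, 8.78, 6.72, 4.02 and 15.8 in female CRE-, and 71.2, 12.8, 27.9 and 28.1 in female LKO. Every marker in these lists had reads in at least 1 library.

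**Figure D2:**
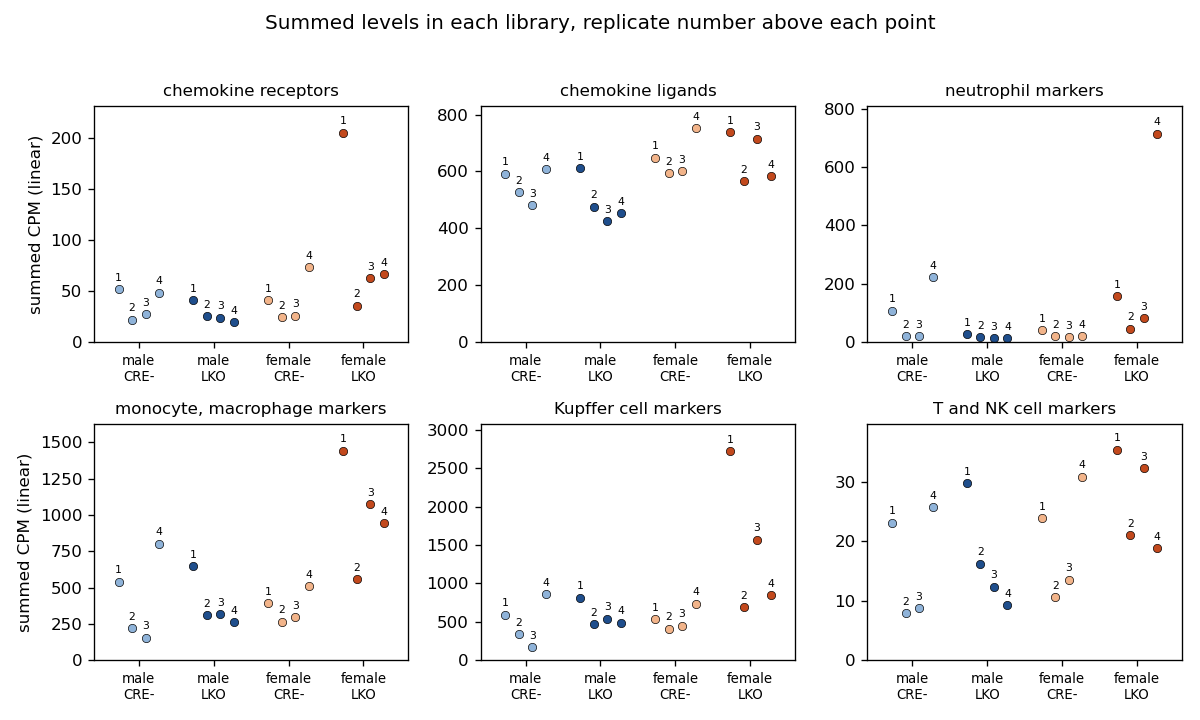
Summed CPM, on linear axes, of all receptors, all ligands and the markers of neutrophils, monocytes and macrophages, Kupffer cells, and T and NK cells in each library by group, with the replicate number above each point. Female LKO 1 is highest for receptors (205) and Kupffer markers (2724), and female LKO 4 for neutrophil markers (716).

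Many members lie side by side in the genome, and 10 clusters with neighbours at most 500000 bases apart held 43 of the 59 members. The cluster of Ccl2, Ccl7, Ccl12 and Ccl8 on chromosome 11 (81926403 to 82070638) also includes Ccl11 and Ccl1, and its 4 tested genes were all above 0 in females (53.1% of all genes), 3 with an unadjusted p under 0.05 (21.4% of all genes), where Ccl12 was bound to be higher by the filter, and 3 of 4 were above 0 in males (49.1% of all genes). A second chromosome 11 cluster (83416604 to 83555509), with Ccl5, Ccl9, Ccl6, Ccl3 and Ccl4, had 4 of 5 above 0 in each sex, and Ccl9 was the exception in both. This count and those of the clusters below stand beside the same 53.1% of all genes in females and 49.1% in males. On chromosome 5, the Cxcl1, Cxcl2 and Cxcl5 cluster (90907157 to 91053797) had 2 of 3 tested genes above 0 in females and 1 in males, and the Cxcl9, Cxcl10 and Cxcl11 cluster (92469190 to 92511155) had 1 of 3 in each sex. The chromosome 4 cluster of Ccl27a, Ccl19 and Ccl21a (41769467 to 42773991) had 3 of 3 tested genes above 0 in males and 1 of 3 in females. Cxcr2 and Cxcr1 on chromosome 1 (74193153 to 74233867) were both above 0 in females and below 0 in males (50.9% of all genes). With 2 to 5 tested genes in each cluster named here, these counts are descriptions and were not tested.

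Promoters, taken as 250 bases before to 50 after a transcription start, were searched on both strands for the NF-kappaB consensus and for the core of the interferon element, GAAA and GAAA separated by any 2 bases, because both factors are known to drive chemokine genes. RefSeq sequence was used for 42 of the 59 members (49 promoters) and 32851 promoters in all, and 17 members, Ccl2, Ccl5 and Ccl7 among them, were not searched. The NF-kappaB consensus was in 11 of 49 member promoters (22.4%, against 8.46% of all promoters): Ccl1, Ccl9, Ccl20, Ccl27a, Ccr1, Ccr3, Ccr6, Cxcl1, Cxcl2, Cxcl3 and Cxcl10. The interferon core was in 3 of 49 (6.12%, against 3.44%): Ccl19, Cxcl10 and Cxcl14. Of the members higher in females at unadjusted p under 0.05, Cxcl2 and Ccr6 had an NF-kappaB match, as did Ccl27a, which was lower. Ccl9, Ccr1, Ccr3, Cxcl1 and Cxcl10 had a match and did not pass at that p, and Ccl1, Ccl20 and Cxcl3 were not tested. A match describes sequence and does not show binding.

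Matched sequences of 6 members are given on the strand of the gene, with the match in capitals and coordinates in build GRCm38.p6. They were chosen to show Cxcl2 and Ccr6, which were higher in females at unadjusted p under 0.05, the neighbours Cxcl1 and Cxcl3 of Cxcl2, the Ccr6 ligand Ccl20, and Cxcl10, which holds both motifs.
Cxcl2, chr5:90903793-90903822, plus strand: ctgagctcaGGGAATTTCCCtggtccccgg
Cxcl1, chr5:90891165-90891194, plus strand: ctgtactccGGGAATTTCCCtggcccggag
Cxcl3, chr5:90786019-90786048, plus strand: agctgcgggGGGAATTTCCCcagcccgggc
Ccr6, chr17:8242436-8242465, plus strand: gcttggcttGGGGAATTCCCagataaaaac
Ccl20, chr1:83116676-83116705, plus strand: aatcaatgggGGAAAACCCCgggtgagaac
Cxcl10, NF-kappaB, chr5:92348973-92349002, minus strand: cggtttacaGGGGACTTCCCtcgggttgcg
Cxcl10, interferon core, chr5:92349083-92349112, minus strand: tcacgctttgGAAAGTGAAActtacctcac
The same 11 bases in capitals were matched in Cxcl1, Cxcl2 and Cxcl3, 3 neighbours on chromosome 5, although Cxcl2 alone among them had non-overlapping female groups. The match in Ccl20 is to the consensus on the other strand. A further NF-kappaB match in Cxcl10, at chr5:92349029-92349058, is not shown.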

How the data were processed

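Counts deposited by the authors were used as given. The authors aligned reads to GRCm39 with STAR 2.7.1a and counted them per gene with featureCounts of Subread 2.0.6, for stranded paired reads. Both reads of a pair were counted, as 85.7% to 91.5% of counts from 2 to 20 were even, and reads that fit several places were not. RNA was selected on poly-A. In R 4.3.3, edgeR 4.0.16 (with limma 3.58.1) fitted 1 model with a mean for each of the 4 groups, after filterByExpr at a minimum count of 10 and TMM scaling. Quasi-likelihood tests were adjusted by Benjamini-Hochberg over 16742 genes, and a gene was called at an adjusted p under 0.05. The 4 comparisons were LKO against CRE- in males, the same in females, the difference between these, and female against male CRE-. Alternatives were DESeq2 1.42.0, each sex fitted alone, RLE scaling, no filter, a filter of 10 or more counts in each library, replicate number as a block, a call at adjusted p under 0.1, and 16 fits that each left out 1 library.

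CPM use TMM-scaled totals. TPM use the gene length of the count table and totals without TMM scaling. Groups were called non-overlapping when every library of a group lay beyond every library of the other. Genes named with values were members that passed the filter, Gcgr, and genes called in the lists. The members and lists were chosen with earlier results of these data known. Lists covered family relatives, receptor signalling, inducers, processing and presentation, markers of Kupffer cells, monocytes and macrophages, neutrophils, dendritic cells, B and plasma cells, T and NK cells, sinusoidal endothelium, stellate cells and fibroblasts, bile duct and hepatocytes, and proliferation. Ccl20 and Cxcl10 were included as the study names them. Gene coordinates are GRCm39, and promoter coordinates GRCm38.p6 from RefSeq. Protein features were not analysed here.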

Additional observations from a re-analysis of the deposited data

Results flagged for a closer look

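In each group of 4 libraries, the value farthest from the rest was examined for 27 genes and 17 sums, 176 groups in all. In 11 of them 1 library lay far from the other 3. If values were normal and independent, about 1 in 20 groups would do so by chance. The genes and sums share libraries and that assumption was not tested, so the rate is only a guide. Values are in CPM. Gcgr was 127 in male CRE- 3 (others 189.6 to 193). Cx3cr1 was 2.72 in male CRE- 2 (others 6.57 to 7.49). Ccl6 was 66.6 in female CRE- 4 (others 15.7 to 20.1). Cxcr4 was 10.9 in female LKO 4 (others 2.37 to 3.02). Ccl2 was 8.62 in male LKO 1 (others 2.32 to 2.53). Xcr1 was 1.98 in female CRE- 4 (others 0.621 to 0.740). The processing and presentation sum was 3022 in female CRE- 4 (others 2335 to 2406) and 2909 in female LKO 1 (others 2068 to 2188). The B and plasma cell sum was 39.1 in male LKO 4 (others 60.0 to 64.6). The sinusoidal endothelium sum was 176 in female CRE- 1 (others 245 to 254). The stellate cell and fibroblast sum was 198 in female LKO 4 (others 322 to 351).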

How the results depend on the processing

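The number of members called in females moved with the method: 7 by DESeq2, 1 with each sex alone (Cxcl13), 1 without a filter (Ccr2), 5 with the replicate block (Cxcr2, Cxcl13, Cxcl12, Ccr2, Ccl7), 5 at an adjusted p under 0.1 (Cxcr2, Cxcl13, Cxcl12, Ccr2, Ccr6) and 0 to 3 when 1 library was left out. For the difference between sexes DESeq2 called 3. In males every fit that left out 1 library called 0. Between control sexes DESeq2 called 2, no filter 0, the replicate block 0 and the fits that left out 1 library 0 to 1. Over all genes, the fits that left out 1 library called 26 to 49 in males (76 with all libraries). Between control sexes they called 68 to 149 (154 with all libraries). The cause was not tested.

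Gcgr in females was not called with each sex alone (-0.91; edgeR, Benjamini-Hochberg adjusted p = 0.132), without a filter (-0.92; adjusted p = 0.0545) or with at least 10 counts in every library (-0.89; adjusted p = 0.0506). Leaving out 1 library, it ran from -1.11 without LKO 2, where it was kept (edgeR, Benjamini-Hochberg adjusted p = 0.0225), to -0.69 without LKO 1 (adjusted p = 0.0802). Ccl25 between control sexes was not called without a filter (-1.03; edgeR, Benjamini-Hochberg adjusted p = 0.0899), and it ran from -1.16 to -0.93 when 1 library was left out. In females DESeq2 called Cxcr2 (1.82), Cxcl12 (-0.61), Ccr2 (1.84), Ccr6 (2.28), Cxcl13 (3.62), Cxcl2 (2.21) and Ccl7 (2.96).

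With the replicate block, libraries of the same number were treated as paired. Female values were 1.71 for Cxcr2, -0.65 for Cxcl12, 1.60 for Ccr2 and 3.91 for Cxcl13, and Ccl25 between control sexes was -1.03 (edgeR, Benjamini-Hochberg adjusted p = 0.0515). Signs turned for Cxcr4 in males (0.023) and Xcl1 in females (0.0614). Correlations of libraries with the same number, after removing group means, were 0.17, 0.17, 0.14 and -0.01 in males and 0.17, 0.10, 0.12 and 0.03 in females, and 2 of 4 in each sex were best with their own number, which does not settle whether the numbers pair mice, and they were not used as pairs elsewhere.

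For the members followed gene by gene, leaving out 1 library turned the sign of these fold changes, given as lowest and highest. The other members were only counted together. In males they were Ccl2 -0.84 to 0.28, Ccr6 -0.66 to 0.0948, Ccr9 -0.78 to 0.0115, Cxcl10 -0.15 to 0.82, Cxcl13 -1.19 to 1.67, Cxcl16 -0.12 to 0.51, Cxcl9 -0.63 to 0.00172, Cxcr3 -0.54 to 0.40, Cxcr4 -0.30 to 0.14, Cxcr6 -0.34 to 0.37, Xcl1 -0.50 to 0.22 and Xcr1 -0.78 to 0.22. In females they were Ccr3 -1.30 to 5.99, Ccr9 -0.37 to 0.48, Cx3cl1 -0.0456 to 0.28, Cxcr3 -0.10 to 0.89, Cxcr5 -0.35 to 0.60, Xcl1 -0.53 to 0.61 and Xcr1 -0.72 to 0.87.

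With 4 mice per group, and members such as Cxcl2, Ccr6 and Ccl12 near or under 1 CPM, changes can be missed, and the size that would be was not tested. Transcripts of bulk liver give neither chemokine protein nor the cells of origin.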
